A study of Mus musculus with 163 samples.

Results

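The genes described here are 10 genes of meiotic prophase, Sycp1, Sycp2, Sycp3, Syce1, Syce2, Hormad1, Hormad2, Dmc1, Spo11 and Stra8. Their transcripts were measured in single mouse oocytes at stages that, in vivo, follow synapsis and recombination. The genes were found by their Entrez gene IDs among the 21950 genes of the count table, and all 10 were there. The study compared oocytes grown in vivo with oocytes that had passed through part or all of development in culture, at 2 stages: growing oocytes (GROs) and fully grown oocytes (FGOs). The 163 oocytes fell into 7 groups, and each library came from 1 oocyte.

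The 23 iPSC-derived GROs and 24 iPSC-derived FGOs came from a female induced pluripotent stem cell line, called BVSC-iPSC after its Blimp1-Venus and Stella-ECFP reporter transgenes, so that both groups rest on 1 line. These cells had been turned into primordial germ cell-like cells and aggregated with somatic cells of Swiss Webster fetal gonads, from which the germ cells had been depleted, into reconstituted ovaries. The paper reports that some oocytes there lacked Stella-ECFP and likely came from gonadal germ cells that escaped depletion. Whether any such oocyte is among these libraries was not tested. The 24 gonad-derived GROs and 24 gonad-derived FGOs came from E12.5 fetal gonads (embryonic day) that had been taken apart and re-aggregated whole, germ cells included. They were cultured by a similar protocol, with a shorter final growth culture than follicles of stem cell origin had, and the strain of these gonads is not stated separately. The 24 FGOs labelled 6 dpp grew in culture from follicles isolated at 6 days post partum. The 24 in vivo GROs and 20 in vivo FGOs had developed in the animal, and their strain and age, and the strain of the 6 dpp donors, are not given in the sources used here. According to the paper, GROs from iPSCs and from gonads were larger than in vivo GROs. Comparisons with in vivo GROs, and of growth between lineages, therefore involve GROs of unequal size. No label ties an oocyte to an animal or a culture. Each group was therefore treated as 1 sample, no test was run between groups, and the spread given is that between oocytes of a group.

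In early meiotic prophase STRA8 switches on the meiotic programme in response to retinoic acid, SPO11 makes DNA double-strand breaks, and the recombinase DMC1 uses the homologous chromosome to repair them. The chromosomes meanwhile fold along axes that hold SYCP2 and SYCP3 with the HORMA-domain proteins HORMAD1 and HORMAD2, and the axes of homologues are then joined by the synaptonemal complex, a zipper whose transverse filament is SYCP1 and whose central element includes SYCE1 and SYCE2. In the female mouse all of this takes place in the fetal ovary. Around birth the complex comes apart and the oocyte arrests at dictyate, the stage in which it then grows. Oocyte growth in vivo thus comes after the structure these transcripts encode has been dismantled. Whether the complex had come apart in the cultured oocytes was not measured here.

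Several of these genes belong to the germline genes that DNA methylation and the E2F6, MGA and MAX repressor complex keep silent in other cells. The sequences upstream of the genes that differed most by the source of the oocytes, Sycp3 and Hormad1, are printed for that reason, with those of Sycp1, Hormad2 and Stra8 for comparison. They run 5′ to 3′ on the strand of the gene over the 250 bases before the transcription start in RefSeq (build GRCm38.p6), with CACGTG, an E-box that reads alike on both strands and is bound by MAX dimers, and GCGGGA or its reverse complement TCCCGC, the core of the element bound by E2F6, in capitals. The Sycp3 window is chr10:88459337-88459586 (plus strand), the Hormad1 window chr3:95559427-95559676 (plus), the Sycp1 window chr3:102936101-102936350 (minus), the Hormad2 window chr11:4441083-4441332 (minus) and the Stra8 window chr6:34920698-34920947 (plus). Upstream here refers to the RefSeq start alone. By the gene bounds given below, the Stra8 window lies inside the gene, and so does part of the Hormad2 window.
Sycp3: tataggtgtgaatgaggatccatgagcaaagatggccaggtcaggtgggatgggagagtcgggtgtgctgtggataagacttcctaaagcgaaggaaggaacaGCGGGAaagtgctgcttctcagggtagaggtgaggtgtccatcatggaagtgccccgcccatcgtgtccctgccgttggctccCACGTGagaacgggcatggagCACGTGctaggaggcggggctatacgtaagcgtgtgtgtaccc
Hormad1: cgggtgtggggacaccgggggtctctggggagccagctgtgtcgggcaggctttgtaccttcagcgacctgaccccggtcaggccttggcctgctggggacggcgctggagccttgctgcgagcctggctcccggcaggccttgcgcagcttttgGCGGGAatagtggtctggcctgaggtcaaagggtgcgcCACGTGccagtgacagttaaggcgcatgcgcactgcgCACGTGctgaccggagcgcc
Sycp1: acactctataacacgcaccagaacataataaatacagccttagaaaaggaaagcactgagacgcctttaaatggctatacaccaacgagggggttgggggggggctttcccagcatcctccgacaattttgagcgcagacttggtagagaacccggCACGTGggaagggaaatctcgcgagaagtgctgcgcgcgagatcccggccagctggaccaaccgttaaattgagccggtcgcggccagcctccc
Hormad2: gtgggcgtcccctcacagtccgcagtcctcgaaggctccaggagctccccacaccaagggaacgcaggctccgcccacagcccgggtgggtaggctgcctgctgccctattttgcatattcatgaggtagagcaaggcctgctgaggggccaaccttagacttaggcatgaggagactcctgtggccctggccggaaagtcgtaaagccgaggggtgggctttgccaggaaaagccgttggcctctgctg
Stra8: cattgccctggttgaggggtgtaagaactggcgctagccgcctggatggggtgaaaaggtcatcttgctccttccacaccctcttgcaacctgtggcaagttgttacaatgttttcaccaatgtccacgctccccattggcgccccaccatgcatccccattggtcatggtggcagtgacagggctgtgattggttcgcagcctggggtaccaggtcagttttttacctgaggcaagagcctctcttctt

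A window was found for 9 of the 10 genes, all but Spo11. Sycp3 and Hormad1 each held 2 CACGTG and 1 GCGGGA. Their CACGTG lay 64 and 43 bases before the start in Sycp3, and 57 and 20 bases before it in Hormad1. Of 32817 windows of this length in the table, 6.02% held a CACGTG, 16.9% a GCGGGA on either strand, and 0.119% at least 2 CACGTG together with a GCGGGA. The last share is for the combination that Sycp3 and Hormad1 hold, and these genes were picked for their differences between sources. It therefore tests nothing about them. Sycp1 held 1 CACGTG, the first of the Syce2 starts held 1 TCCCGC, and the second held 1 CACGTG and 1 GCGGGA. Dmc1 held 2 TCCCGC. Sycp2, Syce1, Hormad2 and Stra8 held neither motif, which says only that these letters are not in these windows. The windows of Sycp2, Dmc1 and the second Syce2 start also reach into the gene bounds given below. The count data hold no binding or methylation measurement, so the matches are a description of sequence.

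The libraries held 2.17 to 13.7 M counted reads each (M, 1000000), with a median of 6.93 M. Reads were summed over the oocytes of a group and given as CPM (counts for each 1000000 reads of the library) with an exact Poisson 95% interval, which covers counting error only. Groups were compared as the log2 ratio of pooled CPM after adding 0.5, which understates the change of low genes, over genes with more than 1 CPM in at least 3 oocytes of the pair. A gene was counted as apart at 2-fold or more. Oocyte markers summed to at least 17724 CPM in every library, and the 3 blood markers to at most 1.44 CPM, with a median of 0 in every group. The 11 granulosa cell markers in the table had median sums of 49.6 to 54.4 CPM in GROs and 89.9 to 128 CPM in FGOs, and reached 1644 CPM in 6 dpp FGO 12 and 412 CPM in in vivo FGO 19. Their part in the results was not tested. Fewer transcripts per oocyte and a larger total of other RNA cannot be told apart in CPM.

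What was left of the 10 genes in growing oocytes was unequal. Per kilobase of counted exon (RPKM), in vivo GROs held Syce2 at 492, Sycp3 at 52.9, Sycp2 at 21.3, Sycp1 at 9.46, Hormad2 at 4.96, Syce1 at 4.21, Dmc1 at 1.45 and Hormad1 at 0.737. Stra8 was at 0.0029 RPKM there and Spo11 had no read. Only the steps from Syce2 to Sycp3 and from Hormad1 to Stra8 exceeded the spread, in that the ranges of single oocytes did not meet. Every other pair of neighbours overlapped, except that Stra8 and Spo11 could not be ordered at this depth. Syce2 led in all 7 groups, at 468 to 630 RPKM, between the 99.5th and the 99.6th percentile of all genes.

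In in vivo FGOs the order changed below Syce2, with Sycp2 (23.6 RPKM) ahead of Sycp3 (14.7 RPKM) and Hormad1 still lowest of the 8 detected genes at 0.401 RPKM. In iPSC-derived GROs and FGOs Hormad1 stood at 6.46 and 6.69 RPKM, ahead of Hormad2, beside Sycp1 at 8.62 and 3.25 RPKM. The counted lengths are those deposited with the table, and for Sycp2 the counted 1972 bases are fewer than the 5717 of its longest annotated transcript, so its place in the order holds only for the part that was counted. All 8 genes other than Spo11 and Stra8 had a read in every one of the 163 oocytes.

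**Figure D1:**
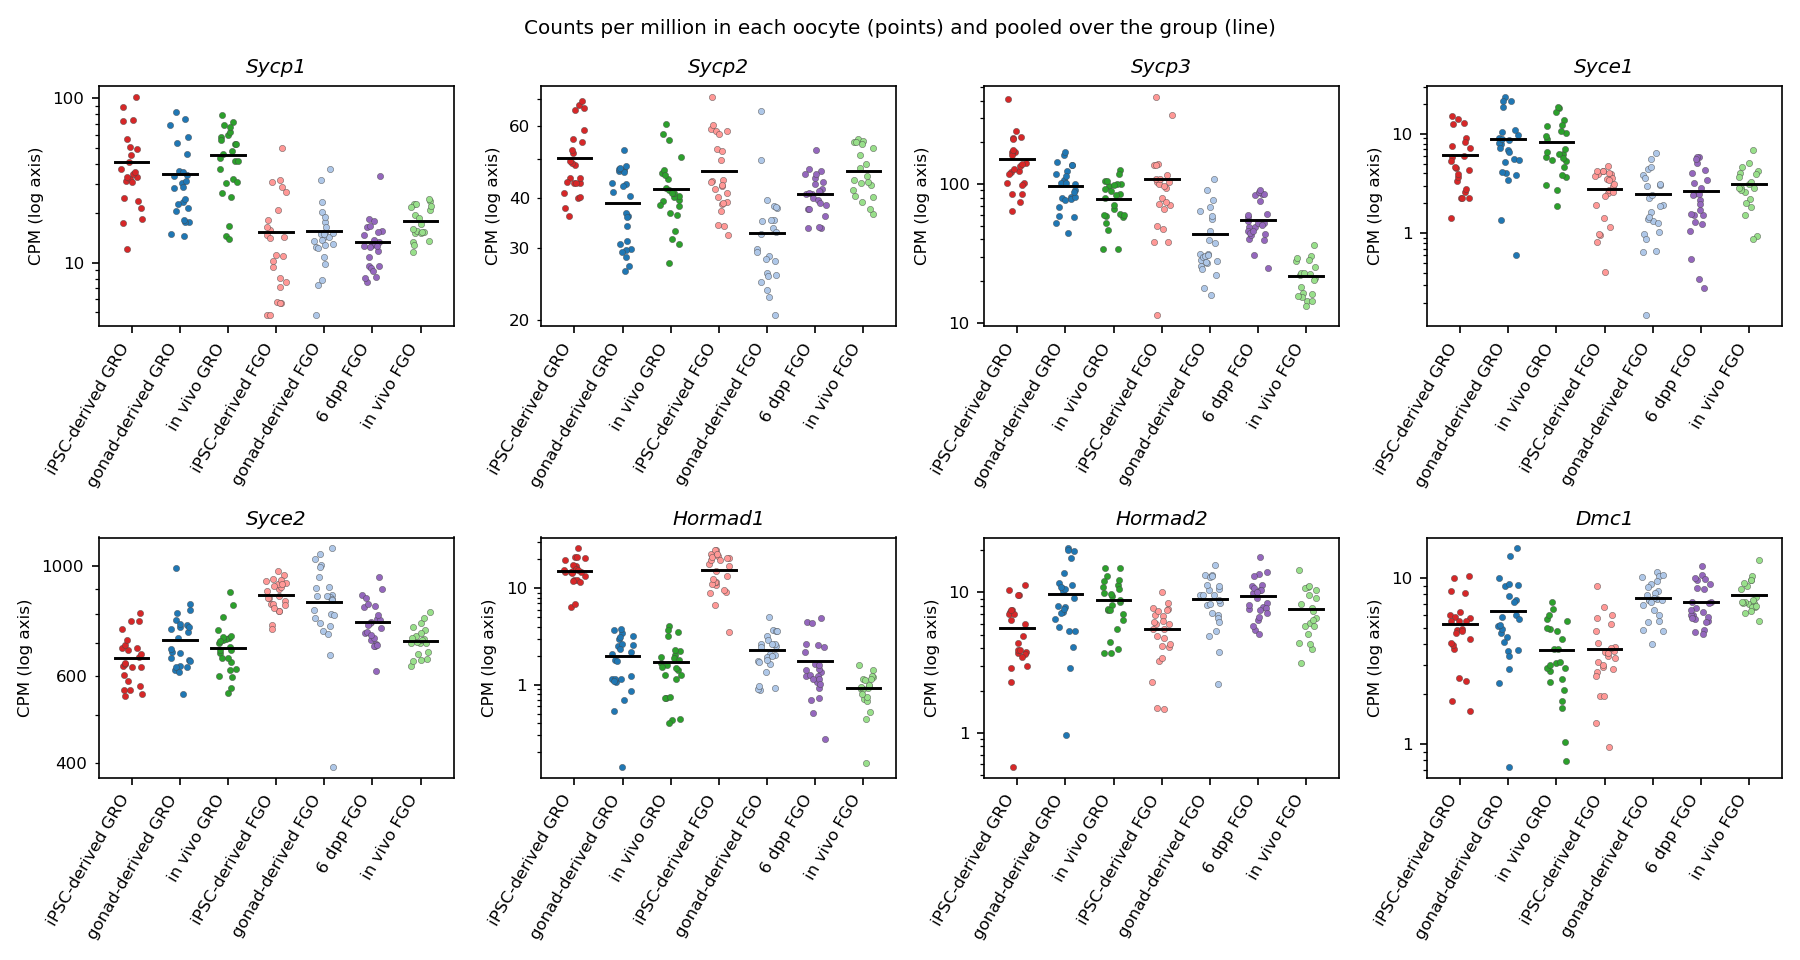
CPM of the 8 genes detected in every oocyte, on a log axis. Each point is 1 oocyte in 1 of the 7 groups and the bar is the pooled CPM of the group. Medians of Hormad1 over oocytes, which are not drawn, were 15.0 and 16.1 CPM in iPSC-derived oocytes against 0.947 to 2.08 CPM in the other 5 groups.

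The genes that start prophase were nearly gone. Stra8 (Entrez ID 20899, chromosome 6, 34920163 to 34939344) had 3 reads among the GROs made from iPSCs, 10 among those from gonads and 1 among those grown in vivo. In FGOs it had 0 reads from iPSCs, 1 from gonads, 5 in the 6 dpp group and 0 in vivo. The 10 reads lay in 5 of 24 gonad-derived GROs (pooled 0.0637 CPM, 0.0305 to 0.117), and only 1 of the 24 kept a read when each oocyte was thinned to 2000000 reads. The 5 reads of the 6 dpp group were all in 6 dpp FGO 3. The 0 of 20 in vivo FGOs allows a share of up to 15.0% with a read, which covers counting error over these oocytes only and does not limit how many hold the transcript.

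Spo11 (Entrez ID 26972, chromosome 2, 172977379 to 172993576) had 3 reads, all in iPSC-derived GRO 8, 1 read in 6 dpp FGO 18 and 1 in in vivo FGO 7. The other 4 groups had none. Over a whole group 3 reads correspond to 0.0181 to 0.0207 CPM, so neither gene gives a fold change that can be read. Neither passed the filter on low values in any comparison.

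Dmc1 (Entrez ID 13404, chromosome 15, 79561497 to 79605159), the meiosis-specific recombinase, remained at a few CPM and was the one gene of the set at least 2-fold higher after growth in vivo. In vivo GROs ranged from 0.794 to 7.20 CPM with a median of 3.12, and in vivo FGOs from 5.49 to 12.9 CPM with a median of 7.17. The ranges overlapped, but every FGO lay above the GRO median, and 9 of 20 lay above every GRO. Pooled, Dmc1 was at 3.66 CPM (3.38 to 3.97) in GROs and 7.89 CPM (7.43 to 8.36) in FGOs. The log2 ratio of 1.01 is barely over 2-fold, and 16 of the 44 omissions of 1 oocyte brought it under. Gonad-derived oocytes were already at 6.33 CPM as GROs and at 7.61 CPM as FGOs, a log2 ratio of 0.25. In iPSC-derived oocytes the direction was opposite, with 5.27 CPM in GROs, 3.73 CPM in FGOs and a log2 ratio of -0.45. At the FGO stage 17 of 24 iPSC-derived FGOs had less Dmc1 than any gonad-derived FGO, at a log2 ratio of -0.94. That ratio passed 2-fold with a pseudocount of 0.1 in place of 0.5 (-1.01) and without iPSC-derived FGO 3 (-1.02).

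Among the axis genes Sycp3 and Hormad1 differed by 2-fold or more between sources, and Sycp2 and Hormad2 did not. Sycp3 (Entrez ID 20962, chromosome 10, 88459587 to 88473236) encodes the main filament-forming protein of the lateral element. In GROs the lowest, median and highest oocyte were at 33.9, 81.0 and 126 CPM in vivo. From gonads they were at 44.7, 95.4 and 171 CPM, and from iPSCs at 64.3, 135.5 and 411 CPM. These ranges overlapped, with medians lowest in vivo and highest from iPSCs. In FGOs they were at 13.2, 21.6 and 36.2 CPM in vivo, at 24.8, 51.5 and 89.97 CPM in 6 dpp oocytes, at 15.8, 31.0 and 109 CPM from gonads and at 11.3, 99.1 and 426 CPM from iPSCs. In vivo FGOs thus held the least and the most even Sycp3, while iPSC-derived FGOs spanned a 37.7-fold range, from FGO 3 to FGO 24.

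Sycp3 was lower after growth in all 3 lineages, though by different amounts. The GROs that the lineages start from differ in size, and its part in these amounts was not tested. The log2 ratio of FGOs to GROs was -1.82 in vivo (pooled 78.4 to 21.8 CPM), -1.14 from gonads (97.1 to 43.7 CPM) and -0.48 from iPSCs (152 to 109 CPM). In vivo 19 of 20 FGOs lay below every GRO, the exception being FGO 19. Without in vivo FGOs 5, 7, 19 and 22, left out because earlier results of these data placed them near the GROs, the pooled level of the remaining 16 FGOs was 20.6 CPM. Since they were chosen for their likeness to GROs, no separation is read from the rest. From gonads 16 of 24 and from iPSCs 5 of 24 FGOs lay below every GRO of their lineage.

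Between sources Sycp3 was 2-fold or more apart only at the FGO stage. iPSC-derived FGOs exceeded gonad-derived FGOs by a log2 ratio of 1.30, and 23 of 24 lay above the gonad-derived median, but 7 of 24 above its highest oocyte. Leaving out iPSC-derived FGO 24 alone brought the ratio to 1.12, the lowest of any such omission. The 6 dpp FGOs exceeded in vivo FGOs by 1.33, with 22 of 24 above every in vivo FGO, and omitting any 1 oocyte, 6 dpp FGO 12 included, gave 1.29 to 1.39. That ratio ranked 77th from the highest among 12932 genes. Gonad-derived FGOs were below 6 dpp FGOs by 0.34.

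Reads over the bases that Sycp3 shares with a neighbour on the opposite strand cannot be assigned to either gene here. The exons of Chpt1, a choline phosphotransferase gene, share 660 bases with those of Sycp3 in the GENCODE M21 annotation, and whether counting used strand is not given in the sources used here. Chpt1 stood at 10.3% to 12.7% of the Sycp3 CPM in every group and followed it over all 163 oocytes (Spearman rho 0.97, across oocytes that share these bases). Sycp3 was the larger of the pair throughout.

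Sycp2 (Entrez ID 320558, chromosome 2, 178345295 to 178407776), the partner of SYCP3 in the lateral element, was nearly level. Pooled values were 50.2, 38.9 and 42.0 CPM in iPSC-derived, gonad-derived and in vivo GROs. In FGOs they were 46.5 CPM from iPSCs, 32.8 from gonads, 41.0 in 6 dpp oocytes and 46.6 in vivo. Ratios stayed between -0.32 and 0.50 in all 8 comparisons, so Sycp3 and Sycp2, whose products form 1 structure, differed in how much of each remained after growth in vivo. At the FGO stage all 24 iPSC-derived oocytes lay above the gonad-derived median of 31.3 CPM, and 1 of them, FGO 1, above the highest gonad-derived oocyte.

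Hormad1 was higher in iPSC-derived oocytes than in the others, with no overlap for GROs and with 1 exception for FGOs. The gene (Entrez ID 67981, chromosome 3, 95559677 to 95587863) encodes the axis protein that promotes break formation and marks unsynapsed chromosomes. In iPSC-derived GROs the lowest, median and highest oocyte were at 6.34, 15.0 and 26.0 CPM, and in iPSC-derived FGOs at 3.57, 16.1 and 24.9 CPM. In gonad-derived GROs they were at 0.141, 1.95 and 3.80 CPM, and in gonad-derived FGOs at 0.880, 2.08 and 5.03 CPM. In vivo they were at 0.399, 1.57 and 4.07 CPM in GROs and at 0.155, 0.947 and 1.63 CPM in FGOs, and the 6 dpp FGOs were at 0.277, 1.31 and 4.89 CPM. Every iPSC-derived GRO lay above all 116 oocytes of the 5 groups not derived from iPSCs, of which gonad-derived FGO 19 was the highest. Of the iPSC-derived FGOs 23 of 24 did, the exception being FGO 15. Among 14120 genes 0.135% separated the iPSC-derived GROs in this way.

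Pooled, Hormad1 stood at 15.1 CPM (14.5 to 15.7) in GROs from iPSCs against 1.99 CPM (1.78 to 2.23) in GROs from gonads. The log2 ratio of 2.65 (6.26-fold) was the 19th highest of 13029 genes. In FGOs it was at 15.7 CPM (15.1 to 16.3) and 2.28 CPM (2.05 to 2.52), and its ratio of 2.54 was the 28th highest of 12889 genes. Omitting any 1 oocyte gave 2.60 to 2.71 at the GRO stage and 2.50 to 2.61 at the FGO stage. Hormad1 hardly differed between stages within iPSC-derived oocytes (log2 ratio 0.05) or within gonad-derived oocytes (0.16). In vivo it was at 1.72 CPM in GROs and 0.938 CPM in FGOs, a ratio of -0.63, with 1 of 20 FGOs above the GRO median. In in vivo FGOs, where only 7 of 20 oocytes exceeded 1 CPM, the coefficient of variation between oocytes was 36.5% against 38.6% from counting alone, so differences between those oocytes were not detectable at this depth.

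**Figure D2:**
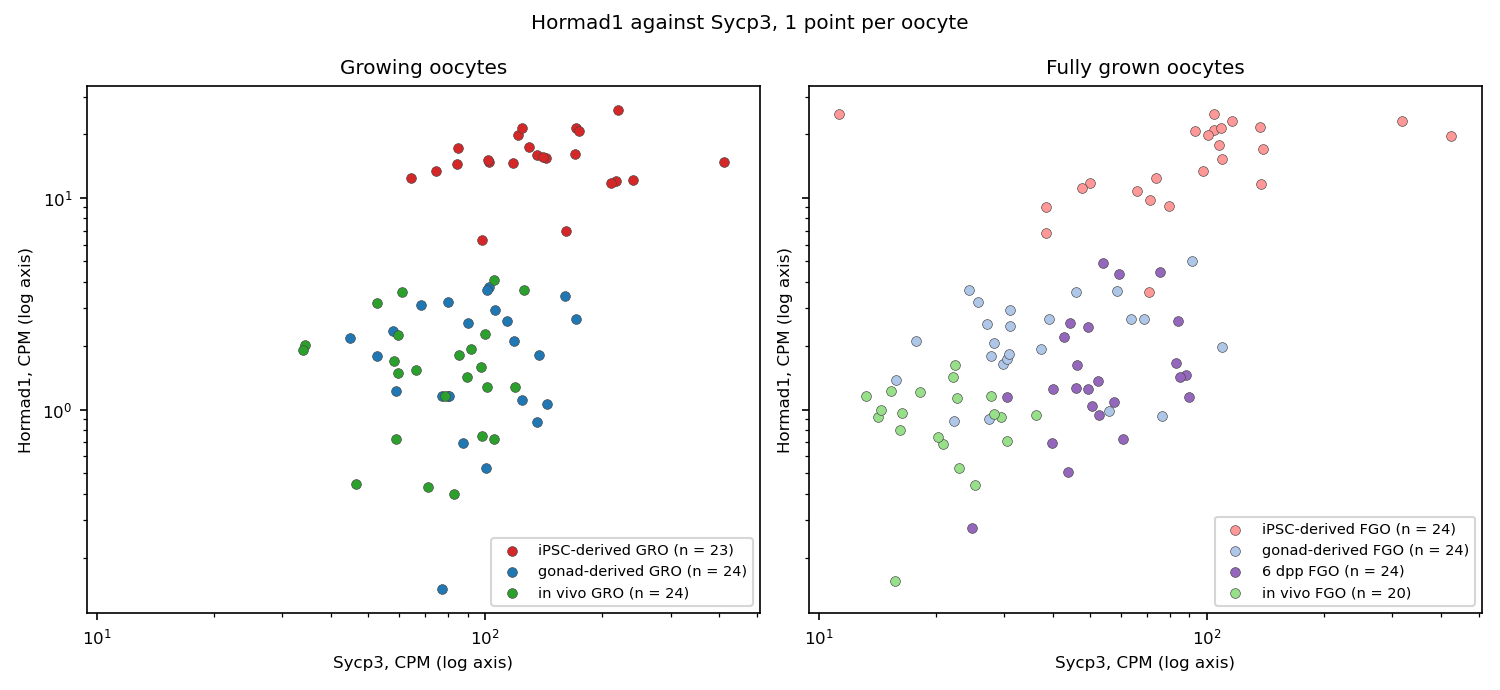
Hormad1 against Sycp3 in CPM, both on log axes, with GROs and FGOs in separate panels and 1 point for each oocyte. iPSC-derived GROs stand apart along the Hormad1 axis, iPSC-derived FGOs do so but for FGO 15 at 3.57 CPM, and in vivo FGOs gather at 13.2 to 36.2 CPM of Sycp3.

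Hormad2 (Entrez ID 75828, chromosome 11, 4345801 to 4441198), the paralogue that acts in the checkpoint on unsynapsed chromosomes, went the other way and by less. It was at 5.57 CPM in iPSC-derived GROs and 5.51 CPM in iPSC-derived FGOs, and at 7.57 to 9.79 CPM in the 5 other groups. The log2 ratio of iPSC-derived to gonad-derived oocytes was -0.76 in GROs and -0.67 in FGOs, with overlapping ranges and neither reaching 2-fold. The paralogues were thus on opposite sides of the gonad-derived level in iPSC-derived oocytes at both stages. Hormad2 differed little with growth, at ratios of -0.21, -0.01 and -0.11 in vivo, from iPSCs and from gonads.

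Of the genes of the central region, Sycp1 and Syce1 were lower after growth in every lineage, and Syce2 was not. Sycp1 (Entrez ID 20957, chromosome 3, 102818499 to 102936100) encodes the transverse filament that spans the paired axes. In vivo GROs had a lowest, median and highest oocyte of 13.9, 44.8 and 78.9 CPM, and in vivo FGOs of 11.7, 16.7 and 24.5 CPM. iPSC-derived GROs had 12.1, 34.9 and 102 CPM and FGOs 4.80, 12.6 and 49.7 CPM, and gonad-derived GROs had 14.6, 29.9 and 82.9 CPM and FGOs 4.78, 14.4 and 37.2 CPM. The ranges met in each lineage, but no in vivo FGO, 1 iPSC-derived FGO and 2 gonad-derived FGOs reached the median GRO of their lineage. The log2 ratios were -1.30, -1.38 and -1.12. The 6 dpp FGOs were at a median of 12.8 CPM, and between sources at the same stage the furthest ratio was -0.40, between 6 dpp and in vivo FGOs.

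An annotated Sycp1 pseudogene, Sycp1-ps1, had its own row in the table at 6.66% to 9.57% of the Sycp1 CPM and followed it over oocytes (Spearman rho 0.85). Only uniquely placed reads were counted, so reads that match both equally are in neither row, and how many Sycp1 lost in this way was not tested.

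Syce1 (Entrez ID 74075, chromosome 7, 140777229 to 140787854), a central element protein, was low and uneven. It was at 6.12, 8.96 and 8.34 CPM in iPSC-derived, gonad-derived and in vivo GROs and at 2.46 to 3.10 CPM in the 4 groups of FGOs. The log2 ratios over growth were -1.30 in vivo, -1.68 from gonads and -1.01 from iPSCs. The last is barely past 2-fold, and 15 of the 47 omissions of 1 oocyte brought it under, as did TMM scaling and median-of-ratios scaling (both -0.94), a pseudocount of 2 (-0.76) and medians over oocytes (-0.54). Single oocytes overlapped widely, for example from 0.606 to 23.6 CPM in gonad-derived GROs and from 0.149 to 6.42 CPM in gonad-derived FGOs. No source comparison reached 2-fold, and the furthest was -0.52 between iPSC-derived and gonad-derived GROs.

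Syce2 (Entrez ID 71846, chromosome 8, 84872111 to 84887446), another central element protein, was the most abundant of the set and varied little between oocytes. Its pooled level was 651, 709 and 684 CPM in iPSC-derived, gonad-derived and in vivo GROs. In FGOs it was 876 CPM from iPSCs, 847 from gonads, 769 in 6 dpp oocytes and 706 in vivo. Between oocytes of a group the coefficient of variation was 6.89% to 17.3%, against 1.30% to 1.48% from counting. Before counting error was removed this was the lowest of the 8 detected genes in every group. In 6 dpp FGOs Sycp2 (11.3%, with 6.10% from counting) was close to Syce2 (10.2%, with 1.41%). Removing counting error would place Sycp2 below Syce2 there. In in vivo FGOs the spread of Hormad1 (36.5%) did not exceed that from counting (38.6%), so Hormad1 cannot be ranked against Syce2 in that way. Over growth in vivo Syce2 was level (log2 ratio 0.05), and it was slightly higher in FGOs than in GROs from gonads (0.26) and from iPSCs (0.43). From iPSCs 22 of 24 FGOs lay above every GRO although the difference was only 1.34-fold. Syce2 alone made up 70.3% to 88.2% of the summed CPM of the 10 genes. Without it the other 9 summed to 275, 198 and 188 CPM in iPSC-derived, gonad-derived and in vivo GROs and, in FGOs, to 198 CPM from iPSCs, 113 from gonads, 131 in 6 dpp oocytes and 106 in vivo.

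**Figure D3:**
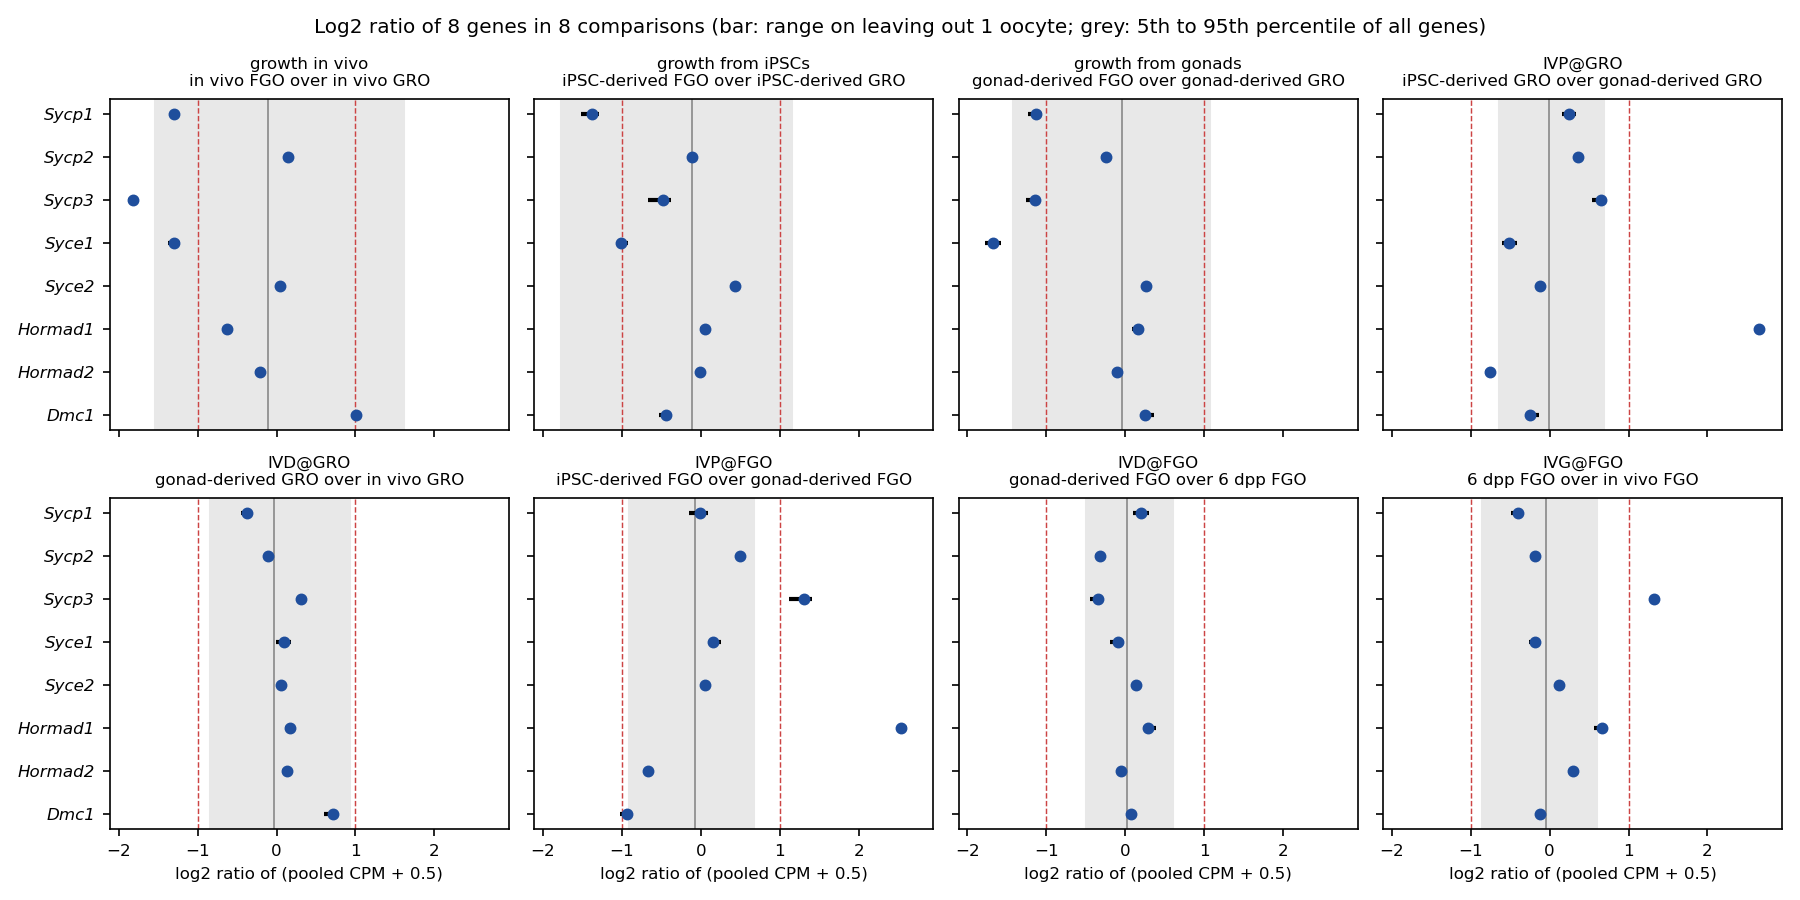
Log2 ratio of pooled CPM (0.5 added) of the 8 detected genes in the 8 comparisons, with bars from the lowest to the highest ratio when 1 oocyte is left out, the grey band from the 5th to the 95th percentile of all genes that passed the filter, and dashed lines at 2-fold. IVP is iPSC-derived over gonad-derived, IVD gonad-derived over in vivo (GRO) or 6 dpp (FGO), and IVG 6 dpp over in vivo. Outside the band lie Hormad1 (2.65 in IVP@GRO, 2.54 in IVP@FGO, 0.67 in IVG@FGO), Sycp3 (1.30 in IVP@FGO, 1.33 in IVG@FGO, -1.82 over growth in vivo), Hormad2 (-0.76 in IVP@GRO), Dmc1 (-0.94 in IVP@FGO) and Syce1 (-1.68 over growth from gonads).

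Lower levels after growth were common among all genes too. Over growth in vivo 3 of the 8 members that passed the filter were 2-fold or more lower (Sycp1, Sycp3, Syce1) where 13.2% of genes were, and 1 (Dmc1) was higher where 10.4% were. From gonads 3 of 8 (again Sycp1, Sycp3 and Syce1) were lower, against 9.98% of genes, and 0 higher, against 5.82%. From iPSCs 2 of 8 (Sycp1, and Syce1 at the threshold) were lower, against 15.3%, and 0 higher, against 6.69%. The median ratio of the 8 was -0.42, -0.18 and -0.28 in vivo, from gonads and from iPSCs, beside -0.11, -0.05 and -0.11 over all genes. The 12 oocyte markers were also lower, with median ratios of -0.65 in vivo (4 of 12 at least 2-fold lower), -0.85 from gonads (6 of 12) and -1.32 from iPSCs (7 of 12), and their part in the values of the members was not tested.

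iPSC-derived and gonad-derived oocytes were compared to ask about in vitro primordial germ cell differentiation (IVP@GRO and IVP@FGO for the 2 stages). The stem cell line, the germ cell depletion of the somatic cells and, for FGOs, the length of the growth culture also differ between these groups and cannot be told apart from it. In GROs 1 of 8 members, Hormad1, was higher, against 2.03% of genes at 2-fold and 0.345% at 4-fold, and it was also among the 0.322% of genes with every iPSC-derived GRO above every gonad-derived GRO. None was lower, against 1.8%. In FGOs Hormad1 and Sycp3 were higher, against 2.3% of genes at 2-fold, Hormad1 alone at 4-fold, against 0.442%, and none was lower, against 3.9%. Median ratios of the 8 were 0.06 and 0.10.

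The remaining comparisons ask about in vitro differentiation, as gonad-derived against in vivo GROs (IVD@GRO) and against 6 dpp FGOs (IVD@FGO), and about in vitro growth, as 6 dpp against in vivo FGOs (IVG@FGO). Gonad-derived GROs were the larger ones in the paper, and the part of oocyte size in IVD@GRO was not tested. Between gonad-derived and in vivo GROs 0 of 8 were 2-fold higher or lower, where 4.3% and 2.75% of genes were, and the furthest was Dmc1 at 0.71. Between gonad-derived and 6 dpp FGOs 0 of 8 were, where 1.64% and 0.948% of genes were higher and lower, and the furthest was Sycp3 at -0.34. Between 6 dpp and in vivo FGOs 1 of 8, Sycp3, was higher and 0 lower, where 1.25% and 3.12% of genes were. Hormad1 came next at 0.67, from 1.78 against 0.938 CPM. These comparisons share groups with those above, so their values are not independent.

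Correlations between the 8 genes over the oocytes of a group were mostly weak and differed between groups. Over all pairs of the 8 the highest median Spearman correlation across the 7 groups was 0.29, for Sycp1 with Sycp3 (0.04 to 0.61). Stronger values stood in single groups, such as 0.67 for Sycp1 with Syce1 in in vivo GROs, 0.61 for Sycp1 and 0.51 for Sycp3 with Hormad1 in iPSC-derived FGOs, and -0.63 for Sycp1 with Syce2 in gonad-derived FGOs. iPSC-derived FGO 3 shows how far apart they could be, with the least Sycp3 of its group (11.3 CPM) and the most Sycp1 (49.7 CPM) and Dmc1 (9.00 CPM) in a library close to the median depth. Gonad-derived FGO 19 had the least Syce2 (393 CPM) and the most Sycp2 (65.6 CPM) and Hormad1 (5.03 CPM) of its group, likewise close to the median depth.

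Across all 163 oocytes, which differ in stage and source, each gene was also ranked against 10996 other genes by Spearman correlation of CPM, given as a description. Sycp1-ps1 and Chpt1 were the nearest to Sycp1 and Sycp3, followed by Acat3 (0.72) and Rtca (0.72). Syce2 was nearest to Rp9 (0.80), Syce1 to Edf1 (0.64), Dmc1 to Polm (0.64), Hormad2 to Rpp14 (0.50) and Sycp2 to Slc6a20b (0.45). The nearest to Hormad1 were Uggt2, Atp23 and Rad52, all at 0.68. Uggt2, a glucosyltransferase of glycoprotein folding, was likewise highest in iPSC-derived oocytes, at 39.0 and 40.1 CPM in iPSC-derived GROs and FGOs and 6.72 to 18.6 CPM in the other groups.

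The rest of the prophase pathway was read from 7 lists of 51 genes, of which 43 were in the table: synapsis, axis cohesin, break formation, strand exchange, crossover, meiotic entry and repressors of germline genes. Over growth in vivo 4 of the 39 that passed the filter were 2-fold higher and 4 lower, near the 10.4% and 13.2% of all genes, with a median ratio of 0.01. Growth from iPSCs had 3 higher and 4 lower of 40, beside 6.69% and 15.3% of all genes, and growth from gonads 1 and 1 of 38, beside 5.82% and 9.98%. Mei4, a partner of SPO11 in break formation, was far higher after growth in all 3 lineages, from 4.20 to 52.6 CPM in vivo, from 7.31 to 56.1 CPM from iPSCs and from 12.7 to 46.9 CPM from gonads, with log2 ratios of 3.50, 2.86 and 1.85. Spo11 was nearly absent in the same oocytes. Mei4 was the only gene of the break formation list past 2-fold over growth. In vivo, from iPSCs and from gonads the median ratio of that list was -0.63, -0.21 and -0.17, beside -0.11, -0.11 and -0.05 over all genes.

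Other list genes moved in both directions. Tex11, a crossover factor, was higher after growth at 1.71 in vivo and 1.32 from iPSCs, and stood at 0.98 from gonads. Rarb, a retinoic acid receptor gene, was higher at 2.05 in vivo and 1.15 from iPSCs, with 0.92 from gonads. Rbm46, an RNA-binding protein of meiotic entry, was lower at -1.29 in vivo and -1.99 from iPSCs, with -0.37 from gonads. Among the cohesins of the axis, the kleisin Rad21l was lower after growth at -1.07, -1.76 and -1.57 in vivo, from iPSCs and from gonads. Stag3 stayed within 2-fold (-0.24, -0.86 and -0.45), and Rec8 had at most 5 reads in a group. Mlh3, a crossover resolution gene, was lower by 2-fold or more only from iPSCs, at -1.44, against -0.94 in vivo and -0.96 from gonads, and the difference between lineages was not tested.

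Between iPSC-derived and gonad-derived oocytes 2 of 39 list genes were higher in GROs and 1 of 39 in FGOs, and 0 were lower at either stage, beside 2.03% and 2.3% of all genes higher and 1.8% and 3.9% lower. Ccnb1ip1, a ubiquitin ligase that limits crossover intermediates, was higher at both, from 7.07 to 14.7 CPM in GROs (log2 ratio 1.00) and from 4.33 to 22.6 CPM in FGOs (2.26), where 20 of 24 iPSC-derived oocytes lay above every gonad-derived one. Leaving out iPSC-derived GRO 13 brought the GRO ratio to 0.91. Rbm46 was higher in GROs, at 3.82 against 0.891 CPM. Between gonad-derived and in vivo GROs 4 of 39 were higher and 2 lower, beside 4.3% and 2.75% of all genes. Meioc, which stabilises the meiotic programme, was highest among them at 2.49 (6.91 against 0.816 CPM). It was followed by Mei4 at 1.48, Meiob, a partner of single-stranded DNA in recombination, at 1.34 and Rarb at 1.26. The 2 lower genes were Ythdc2 and Rara, of the same meiotic entry list as Meioc and Rarb, which had a median ratio of -0.05. The FGO comparisons had 1 higher of 38 (gonad-derived against 6 dpp) and 1 lower of 37 (6 dpp against in vivo), beside 1.64% and 3.12% of all genes.

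The list of repressors of germline genes held Max, Mga, E2f6, L3mbtl2, Pcgf6 and Rnf2. The motifs searched for upstream were only those given above for MAX dimers and E2F6. All 6 genes passed the filter in all 8 comparisons, and 0 of 6 reached 2-fold in any of them. Shares of all genes past 2-fold run from 0.948% to 15.3% in 1 direction, so a count of 0 among 6 does not set the list apart. Their median ratio was -0.09 between iPSC-derived and gonad-derived GROs and -0.16 between the FGOs, beside 0.00 and -0.08 over all genes.

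**Figure D4:**
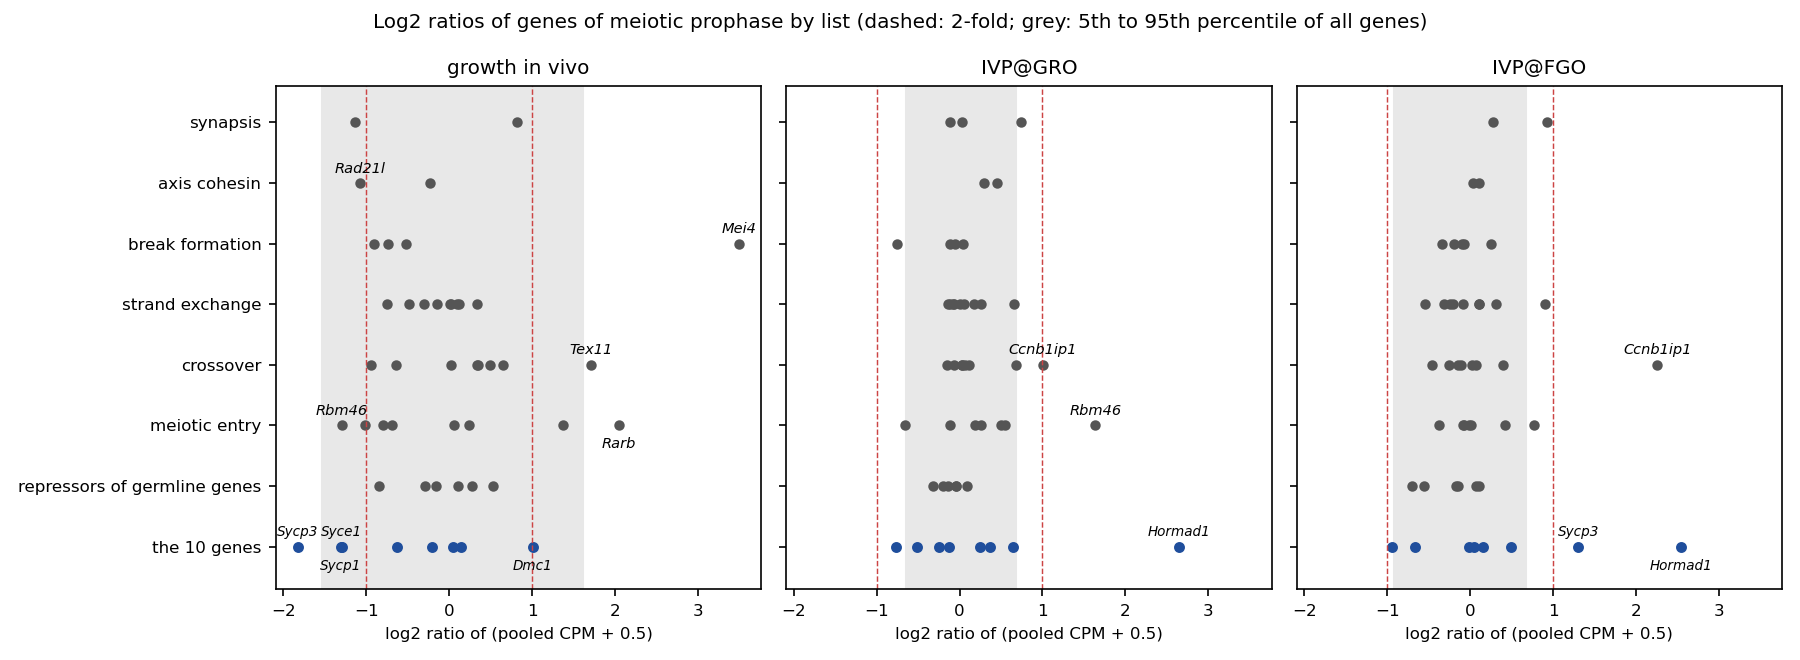
Log2 ratio of pooled CPM (0.5 added) over growth in vivo and between iPSC-derived and gonad-derived oocytes (IVP@GRO, IVP@FGO), by list, with 1 point for each gene that passed the filter, the 10 genes in blue, dashed lines at 2-fold and the 5th to 95th percentile of all genes in grey. Mei4 at 3.50 is the furthest point over growth in vivo, Hormad1 at 2.65 and 2.54 the furthest between sources, and the repressors lie within the dashed lines in these comparisons.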

How the data were processed

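RNA of single oocytes, freed of somatic cells and zona, was amplified by the authors from poly(A) tails (Smart-seq2) with spike-ins and sequenced as single-end reads. The authors aligned reads to mouse GRCm38 (mm10) with STAR and deposited counts: uniquely placed reads over the exons of 1 transcript chosen at random per gene (UCSC known genes, QuasR). The deposited exonic length beside each count is in bases and equals a GENCODE M21 transcript plus 40 bases per exon in 24.3% of genes, so levels per length are approximate. Strand use in counting is not given in the sources used here.

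Symbols were matched for 21907 of 21950 Entrez IDs. Labels put all 163 oocytes in a group. The study's own model treated oocytes as replicates. Here a group was 1 sample, because no label names an animal or culture, and differences have no replicate check. Counts were pooled per group as CPM, and ratios were taken after adding 0.5 CPM over genes above 1 CPM in at least 3 oocytes of the pair, with 3 reads as the floor. Intervals (exact Poisson, 95%) and floors cover counting error only. The 10 genes, the 51 pathway genes and the marker lists were chosen with earlier results of these data known. List genes were given with levels or ratios when 2-fold or more apart and at 1 CPM or more in the higher group, at most 3 per list. The 3 genes most like each member by Spearman rho were taken among 10996. No test was made across genes. The ratio code was tested on simulated data. Alternatives were TMM scaling (edgeR 4.0.16), median-of-ratios scaling, pseudocounts of 0.1 and 2, medians or means over oocytes, no filter, thinning to 2000000 reads, and leaving out single oocytes or the 6 named below. The size selection of oocytes made in the study was not applied. Python 3.11.15, scipy 1.17.1 and R 4.3.3 were used.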

Additional observations from a re-analysis of the deposited data

How the results depend on the processing

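Of the 64 ratios of the 8 detected members, 3 changed their side of 2-fold under some scaling, pseudocount, pooling or omission, and none that was 2-fold apart changed sign. Over growth in vivo 1 member was 2-fold higher (Dmc1), and 0 with a pseudocount of 2 (0 to 1 on leaving out 1 oocyte). Over growth from iPSCs 2 were lower, and 1 with TMM scaling, median-of-ratios scaling, a pseudocount of 2 or medians over oocytes (1 to 2 on leaving out 1 oocyte). Between iPSC-derived and gonad-derived FGOs 0 were lower, and 1 (Dmc1) with a pseudocount of 0.1 (0 to 1 on leaving out 1 oocyte, the 1 without iPSC-derived FGO 3). The pseudocount also set how many genes lay past 2-fold, since low genes pass or fail with it. With a pseudocount of 2 the genes higher and lower between iPSC-derived and gonad-derived oocytes fell from 264 and 235 to 123 and 136 in GROs and from 297 and 503 to 159 and 229 in FGOs, and with 0.1 they were 465 and 367, and 451 and 847. Between gonad-derived and in vivo GROs 561 and 359 became 299 and 134, or 842 and 626. Between gonad-derived and 6 dpp FGOs 213 and 123 became 80 and 47, or 385 and 258, and the 123 became 71 with medians over oocytes and 61 without 6 dpp FGO 12. Between 6 dpp and in vivo FGOs 162 and 404 became 74 and 172, or 299 and 692. Over growth a pseudocount of 2 turned 1373 higher genes into 897 in vivo, 877 higher and 2012 lower into 580 and 1336 from iPSCs, and 761 and 1304 into 446 and 837 from gonads. Leaving out gonad-derived FGOs 5 and 22 and in vivo FGOs 5, 7, 19 and 22 moved the share of higher among the genes past 2-fold between 6 dpp and in vivo FGOs from 28.6% to 42.6%. Thinning to 2000000 reads changed the number of oocytes with a read in 13 of 70 counts (10 genes in 7 groups), all of Spo11, Stra8, Hormad1 or Syce1, with Hormad1 going from 24 to 21 of 24 in vivo GROs and Syce1 from 24 to 22 of 24 6 dpp FGOs. No paired analysis was possible because the oocyte numbers only name libraries and no result comes from a test. Depth limits Spo11 and Stra8 throughout, and Hormad1 and Syce1 in single oocytes of several groups.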
